A study of Mus musculus with 2 samples.

Results

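The genes described here encode the enzymes of the glutathione and thioredoxin systems, the other main antioxidant enzymes, the NRF2 pathway and the ferritins. They were 39 mouse genes chosen by name from knowledge of these systems, and all 39 were found among the 24421 gene symbols measured. RNA was sequenced in bulk from granulocyte-monocyte progenitors (GMPs), the BM cells that give rise to granulocytes and monocytes. One library (NTB-GMP) came from GMPs of female mice without a tumor. The other (4T1-GMP) came from GMPs of female mice that had received 4T1 cells, a line of mouse mammary carcinoma, orthotopically. For the mice of both groups the labels name an F1 background of H-2b/d type, and the methods of the paper name BALB/c and C57BL/6. GMPs were sorted directly from the marrow, with no culture or drug. The paper's methods describe its mice as young adults. The sources used here do not give the sorting gate of these libraries, the time after implantation or how many mice went into each library.

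There was 1 library per group and therefore no replicate error and no test. Values are RPKM, the reads of a gene divided by its length and by the size of the library, so levels may be compared between genes. Where a pair of levels is given for a gene, that of NTB-GMP comes first and that of 4T1-GMP second, and log2 ratios are 4T1-GMP over NTB-GMP. The RPKM rest on library sizes of 10180365 and 30016263 reads, a 2.95-fold difference in depth in favor of 4T1-GMP. Whole reads could be recovered from the digits of the RPKM. A 95% Clopper-Pearson interval on those reads is given with the ratios, and it covers counting error only. The ribosomal RNA precursor Rn45s took up 17.0% of the reads of NTB-GMP but 6.98% of those of 4T1-GMP. Without its reads in the library sizes the log2 ratio of the RPKM of each gene moves by -0.16, and that of RPKM + 0.1, used here, by a similar amount except in genes with very low levels, so the direction of small differences depends on this choice. Genes whose mean level reached 1 RPKM were compared, 10378 in all, of which 37 were among the 39 described here. In bulk RNA, fewer cells of a type and less RNA per cell cannot be told apart.

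Both libraries carried RNAs of GMPs, at levels that differed between them. The myeloperoxidase gene Mpo stood at 5163 and 5625 RPKM, and the summed level of 14 GMP and primary granule genes was 10862 and 16661 RPKM. Of these 14 genes, 6 were at least 1.5-fold higher in 4T1-GMP (Ms4a3, Prtn3, Ctsg, Csf3r, Gfi1 and Elane) and 3 at least 1.5-fold lower. The lower ones encode surface proteins by which GMPs are usually sorted, Cd34 (154 and 59.4 RPKM, log2 ratio -1.37), Fcgr3 (53.1 and 28.6 RPKM, -0.89) and Kit (78.5 and 49.1 RPKM, -0.67). Fcgr2b, the other Fc receptor gene of the list, was higher in 4T1-GMP (47.3 and 64.6 RPKM, 0.45). The RNA of other cell types differed between the 2 libraries. Of 14 mature neutrophil genes, 13 could be compared and all 13 were at least 2-fold higher in 4T1-GMP, with a summed level of 514 and 4076 RPKM over the 14 genes and none at 0. All 10 monocyte and dendritic cell genes compared were lower in 4T1-GMP (185 and 37.2 RPKM summed over 14 genes), as were all 11 of basophils, mast cells and eosinophils (1941 and 726 RPKM summed over 12 genes). The erythroid sum over 14 genes was 29.95 and 13.99 RPKM, with the 4 globin genes listed at 0 in both libraries. The stem and early progenitor sum over 12 genes was 139 and 72.2 RPKM, and the megakaryocyte sum over 8 genes was 16.4 and 5.75 RPKM. The lymphoid sum over 12 genes was 207 and 351 RPKM, nearly all of it Nkg7 (190 and 337 RPKM). Of 8 mammary epithelial genes, Epcam, Krt19 and Cldn4 were listed at 0 in both libraries, and the sum was 18.3 and 10.1 RPKM. These differences in cell markers accompany every ratio given below, and their part in it was not tested.

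Glutathione is a tripeptide that cells use to reduce peroxides, to repair oxidized protein thiols and to tag reactive molecules for export. Thioredoxin and the peroxiredoxins form a parallel system that removes hydrogen peroxide, and both systems draw their electrons from NADPH. The transcription factor NRF2, encoded by Nfe2l2, is held low by KEAP1 and turns on many of these genes when KEAP1 is modified by oxidants. Ferritin stores iron in a form that cannot feed the Fenton reaction. Neutrophil precursors are known for making the enzymes of the respiratory burst, and hydrogen peroxide is the substrate of myeloperoxidase.

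Most of these genes were somewhat higher in 4T1-GMP, and a few differed by more than the rest. Gclm, the modifier subunit of the first enzyme of glutathione synthesis, was 2.70 times as high in 4T1-GMP, while its catalytic partner Gclc was nearly level or, without Rn45s, slightly lower. The glutathione transferases Gstm1 and Mgst2 and sulfiredoxin (Srxn1) were also over 2-fold higher, and the glutaredoxin Glrx, the peroxiredoxins Prdx3 and Prdx5 and the ferritin light chain Ftl1 were 1.64 to 1.96 times as high. The peroxiredoxin of the endoplasmic reticulum, Prdx4, was the 1 gene at least 1.5-fold lower. Catalase and both superoxide dismutases differed little.

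In counts, 28 of the 37 genes compared were higher in 4T1-GMP, beside 54.7% of all 10378 genes. With Rn45s left out, 25 of 37 were higher, beside 39.2% of all genes. Among the 33 genes with a mean of 5 RPKM or more, 25 were higher, beside 59.9% of all genes at that level. On the scale of log2(RPKM + 0.1), 8 of 37 were at least 1.5-fold higher, against 9.8% of all genes, and 1 of 37 was at least 1.5-fold lower, against 11.6%. Without Rn45s these counts were 7 (5.73% of all genes) and 1 (17.0%), and from a mean of 5 RPKM they were 7 (8.54%) and 0 (6.97%). At 2-fold, 4 were higher against 3.25% of all genes, and 0 were lower against 4.92%. Without Rn45s, 1 (Gclm) was 2-fold higher against 2.51%, and 1 (Prdx4) was 2-fold lower against 6.75%. One of the 8 genes, Srxn1, passed the minimum of 1 RPKM only because of its level in 4T1-GMP. The median log2 ratio of the 37 genes was 0.35, or 0.19 without Rn45s. The median of all genes was 0.05, or -0.11 without Rn45s, with quartiles of -0.26 and 0.32. Just inside the 1.5-fold limit, at 0.58 on the log2 scale, lay Ftl1 (0.71) and Prdx3 (0.75), and just outside it lay Glrx3 (0.58) and Txn1 (0.58). The 39 genes together summed to 3015 and 4116 RPKM.

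**Figure D1:**
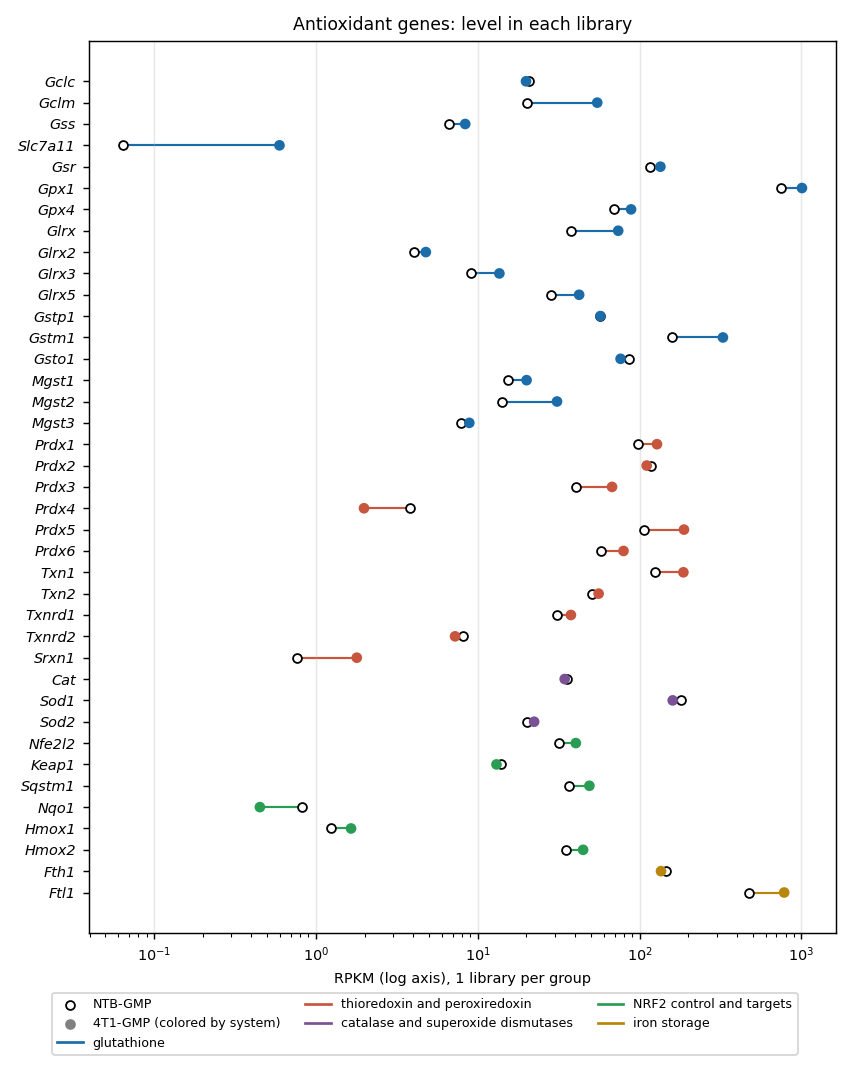
RPKM of the 39 genes (log axis) in NTB-GMP (open circles) and 4T1-GMP (filled circles), 1 library each, joined by a line colored by system. Gpx1 and Ftl1 are the highest in both libraries and Slc7a11 the lowest in NTB-GMP, and the longest lines to the right are those of Slc7a11, Gclm, Srxn1, Mgst2 and Gstm1.

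The size of most ratios depended on the scaling, and the sign of a minority did. With Rn45s left out 12 of 37 ratios stayed inside the interval of the deposited ratio, and under quantile normalization 16 of 37 did. Genes with few reads have wide intervals, so staying inside does not mark a ratio as better measured. With Rn45s left out, Hmox1 (10 NTB-GMP reads) stayed inside and Gpx1 (7951 NTB-GMP reads) did not. Under the deposited scaling and 3 others (Rn45s left out, quantile normalization, and the median of all genes set to 0), 24 of the 37 genes were higher in 4T1-GMP under all 4 scalings, 9 were lower under all 4, and 4 (Gsr, Gstp1, Txn2 and Sod2) changed sign. Gclm, Glrx, Gstm1, Mgst2 and Srxn1 were at least 1.5-fold higher under all 4. Under these scalings taken singly, in the same order, 54.7%, 39.2%, 50.5% and 50.1% of all genes were higher. The shares at least 1.5-fold higher were 9.8%, 5.73%, 9.48% and 8.38%. The shares of all genes that kept their direction or fold under all 4 were not computed. By counting error alone, the interval of the reads lay above 0 for 23 of the 37 genes, beside 36.3% of all genes, and below 0 for 4, beside 28.0%. Without Rn45s these counts were 18, beside 22.3%, and 9, beside 41.6%.

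**Figure D2:**
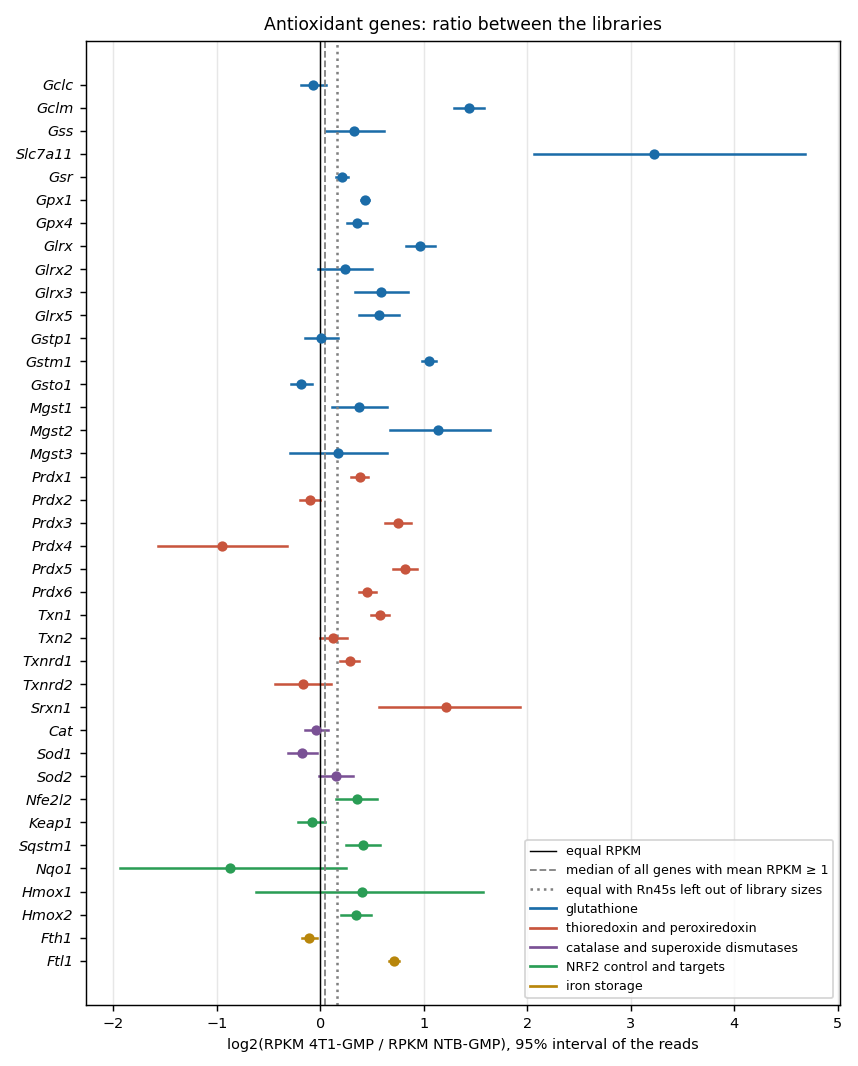
Log2 ratio of the RPKM of 4T1-GMP over NTB-GMP for each of the 39 genes (points), with the 95% interval of the reads (lines), which covers counting error only. The dashed line is the median of all genes and the dotted line is where a gene would be equal if Rn45s were not counted in the library sizes. The points farthest to the right are those of Slc7a11, Gclm, Srxn1, Mgst2, Gstm1 and Glrx, and the point farthest to the left is that of Prdx4. Gsr, Gstp1, Txn2 and Sod2, whose sign depends on the scaling, lie near these lines. Gsr lies to the right of both and changes sign only under quantile normalization, which is not drawn.

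Because several of these genes are textbook targets of NRF2, their promoters were searched for the core of the antioxidant response element, the letters TGACNNNGC on either strand, to which NRF2 binds together with small MAF proteins. The window was 250 bases before to 50 bases after the transcription start, from RefSeq on GRCm38.p6, the build also known as mm10. Of the 39 genes, 35 were in the promoter table, and 7 of them held the core, beside 14.0% of the 27025 genes in the table. Of 13 known NRF2 targets in the table, 5 held it, namely Gclm, Mgst1, Prdx1, Srxn1 and Txnrd1, and it was also found before Nfe2l2 itself and before Sod1. The matches are printed below in capitals with up to 20 bases on either side, 5′ to 3′ on the strand of the gene. Except in Nfe2l2 they lie on the complementary strand, and so read GCNNNGTCA.
Gclm: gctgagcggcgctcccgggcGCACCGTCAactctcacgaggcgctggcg
Srxn1: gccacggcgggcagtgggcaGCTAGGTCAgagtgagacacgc
Txnrd1: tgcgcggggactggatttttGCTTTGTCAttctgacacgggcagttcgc
Prdx1: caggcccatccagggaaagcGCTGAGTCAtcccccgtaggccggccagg
Mgst1: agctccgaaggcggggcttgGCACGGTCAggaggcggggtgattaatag
Nfe2l2: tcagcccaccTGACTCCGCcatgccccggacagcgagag
Sod1: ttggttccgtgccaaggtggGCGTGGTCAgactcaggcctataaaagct
These stretches lie at chr3:122245403-122245451 (Gclm, plus strand), chr2:152105532-152105573 (Srxn1, plus), chr10:82859094-82859142 (Txnrd1, plus), chr4:116685446-116685494 (Prdx1, plus), chr6:138140451-138140499 (Mgst1, plus), chr2:75704875-75704913 (Nfe2l2, minus) and chr16:90220686-90220734 (Sod1, plus). Counted from the start site, the Gclm match covers bases -134 to -126, and that of Srxn1, within the transcript, covers bases 29 to 37. The match in Prdx1 also holds TGAGTCA, the letters of an AP-1 site. Of the 8 genes at least 1.5-fold higher in 4T1-GMP, 2 (Gclm and Srxn1) held the core in this window, and 5 other genes of the set did. A match is a description of the letters, and binding was not measured.

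The whole promoter window of Gclm is shown next, since Gclm had the largest ratio of the 37 genes compared.
Gclm promoter: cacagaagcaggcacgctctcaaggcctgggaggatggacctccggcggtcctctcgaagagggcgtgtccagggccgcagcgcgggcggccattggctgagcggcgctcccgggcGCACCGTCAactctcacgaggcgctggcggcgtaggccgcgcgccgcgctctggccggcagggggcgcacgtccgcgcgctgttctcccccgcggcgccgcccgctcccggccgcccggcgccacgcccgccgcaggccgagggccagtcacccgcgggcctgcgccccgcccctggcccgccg
It lies at chr3:122245307-122245606 on the plus strand of GRCm38.p6, with the core of the antioxidant response element in capitals.

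Glutathione synthesis starts with glutamate-cysteine ligase, a pair of a catalytic subunit (Gclc, chr9:77754535-77794485) and a modifier subunit (Gclm, chr3:122245557-122270732) that raises its activity. Gclm stood at 20.2 RPKM (427 reads) in the control library and 54.7 RPKM (3403 reads) in 4T1-GMP. Its log2 ratio was 1.43, with an interval of 1.29 to 1.58, and 98.3% of all genes compared had a lower ratio. It moved from rank 3346 to rank 1217 among all genes by level. Gclc stood at 20.8 RPKM (726 reads) and 19.9 RPKM (2043 reads), a log2 ratio of -0.07 with an interval of -0.19 to 0.06, which without Rn45s became -0.23 (-0.35 to -0.11). The subunit RNAs were thus about equal in NTB-GMP, with 0.973 of Gclm for each of Gclc, and unequal in 4T1-GMP, with 2.75. The change of this ratio between the libraries does not depend on the library sizes and was 1.502 on the log2 scale (1.31 to 1.69). Gss, glutathione synthetase, which adds the last residue, was at 6.66 and 8.37 RPKM (log2 ratio 0.33, interval 0.05 to 0.62), and its interval reached 0 when Rn45s was left out.

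Slc7a11 encodes the cystine transporter subunit that supplies cysteine for this synthesis. It was near the limit of detection in NTB-GMP, at 0.064 RPKM from 6 reads, and at 0.596 RPKM from 165 reads in 4T1-GMP. The RPKM was 9.33 times as high in 4T1-GMP, and the log2 interval of the reads was 2.07 to 4.69. Its mean was under 1 RPKM, so it is not among the 37 genes compared. It was the lowest gene of the set in NTB-GMP and the lowest but Nqo1 in 4T1-GMP. Slc3a2, the chain that pairs with it in the membrane, was at 30.2 and 30.8 RPKM.

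Glutathione reductase (Gsr), which returns oxidized glutathione to its reduced form, was among the more abundant genes, at 116 and 134 RPKM. Its log2 ratio was 0.21 (0.15 to 0.27), but 0.05 without Rn45s and -0.02 under quantile normalization. The glutathione peroxidases use glutathione to reduce hydrogen peroxide and, in the case of GPX4, lipid peroxides. Gpx1 was the most abundant gene of the set in both libraries, at 746 RPKM (7951 reads) and 1007 RPKM (31645 reads), and held rank 85 and rank 63 among all genes. Its log2 ratio was 0.43 (0.40 to 0.47) and 0.27 without Rn45s. Gpx4 was at 69.1 and 88.5 RPKM, with a log2 ratio of 0.36 (0.26 to 0.46). The ratio of Gpx1 to Gpx4 was 10.8 in NTB-GMP and 11.4 in 4T1-GMP, a log2 difference of 0.07 whose interval, -0.03 to 0.18, includes 0. In the longest annotated transcript of Gpx4, 61.7% of stretches of 50 bases also occur in other genes, led by the pseudogene Gpx4-ps2, so the reads assigned to Gpx4 are uncertain.

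The 4 glutaredoxins, which use glutathione to reduce protein disulfides or to carry iron-sulfur clusters, were all higher in 4T1-GMP under each of the 4 scalings. Glrx, the cytosolic dithiol form, was at 37.7 RPKM (509 reads) and 73.7 RPKM (2936 reads), a log2 ratio of 0.97 (0.83 to 1.11). Glrx3 and Glrx5, the cytosolic and mitochondrial monothiol forms, were at 9.04 and 13.6 RPKM and at 28.5 and 42.3 RPKM, with log2 ratios of 0.58 (0.33 to 0.85) and 0.57 (0.38 to 0.77). Glrx2, the mitochondrial dithiol form, had the smallest difference, 4.06 and 4.78 RPKM, and its interval of -0.02 to 0.50 includes 0. Relative to Glrx2, Glrx was 9.29 times as abundant in NTB-GMP and 15.4 times in 4T1-GMP, and Glrx took up 47.5% and 54.8% of the summed RPKM of the 4 genes.

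Among the glutathione transferases, which join glutathione to electrophiles or, for the microsomal forms, also reduce lipid peroxides and make leukotrienes, the differences ran in both directions. Gstm1 (chr3:108012255-108017973) was at 158 RPKM (2081 reads) and 327 RPKM (12706 reads), a log2 ratio of 1.05 (0.98 to 1.12). Mgst2 (chr3:51660360-51682677) was at 14.0 RPKM (43 reads) and 30.9 RPKM (279 reads), a log2 ratio of 1.13, with a wider interval of 0.67 to 1.64. Both stayed above 1.5-fold under each of the 4 scalings, and Gstm1 was the transferase with the highest level in both libraries. Gsto1 was slightly lower in 4T1-GMP, at 86.5 and 76.3 RPKM, with a log2 ratio of -0.18 (-0.29 to -0.08). Gstp1 was level at 56.9 and 57.2 RPKM, with a log2 ratio of 0.01 (-0.15 to 0.17) that turned to -0.16 without Rn45s. Mgst1 was at 15.4 and 20.03 RPKM (log2 ratio 0.38, interval 0.11 to 0.65, and -0.05 to 0.49 without Rn45s), and Mgst3 at 7.89 and 8.87 RPKM (0.17, interval -0.29 to 0.65).

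Within the summed RPKM of the 6 transferases, Gstm1 made up 46.6% in NTB-GMP and 62.9% in 4T1-GMP, while Gsto1 made up 25.5% and 14.7% and Gstp1 16.8% and 11.0%. The ratio of Gstm1 to Gstp1 was 2.78 and 5.72, a log2 change of 1.04 (0.87 to 1.21), and that of Mgst2 to Mgst1 was 0.910 and 1.54, a log2 change of 0.76 (0.23 to 1.29). The transferases have close relatives: 62.3% of the 50-base stretches of Gstp1 occur in other genes, led by Gstp2, as do 23.1% of those of Gstm1, led by Gstm2-ps1 and Gstm3. Gstm3 itself was at 0.981 and 0.942 RPKM and Gstm2 at 0.469 and 0.0955 RPKM.

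Most peroxiredoxins reduce hydrogen peroxide with electrons from thioredoxin, whereas PRDX6 uses glutathione. In NTB-GMP, Prdx2 was the highest of the 6 at 118 RPKM, and in 4T1-GMP the highest was Prdx5 at 188 RPKM. Prdx5, an atypical form found in several compartments, stood at 107 RPKM (747 reads) and 188 RPKM (3881 reads), a log2 ratio of 0.82 (0.70 to 0.93). Prdx3, the mitochondrial form, stood at 40.2 RPKM (591 reads) and 67.6 RPKM (2930 reads), a log2 ratio of 0.75 (0.62 to 0.88). Both remained higher under each scaling, with values under quantile normalization of 0.56 for Prdx5 and 0.55 for Prdx3, just under 1.5-fold. Prdx2, a cytosolic form abundant in red cells, was at 118 and 111 RPKM, a log2 ratio of -0.10 (-0.20 to 0.00), or -0.26 (-0.36 to -0.16) without Rn45s. Prdx1, the other cytosolic form, was at 98.4 and 128.0 RPKM (log2 ratio 0.38, interval 0.30 to 0.47), and Prdx6 at 58.0 and 79.5 RPKM (0.46, interval 0.37 to 0.54).

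Prdx4, the secretory pathway form (chrX:155323918-155340754), went the other way. It was at 3.83 RPKM (38 reads) and 1.98 RPKM (58 reads), a log2 ratio of -0.92 with an interval of -1.56 to -0.32, and 5.70% of all genes compared had a lower ratio. It was the least abundant peroxiredoxin in both libraries, with 0.900% and 0.344% of their summed RPKM. Prdx2 made up 27.8% of that sum in NTB-GMP and 19.2% in 4T1-GMP, and Prdx5 made up 25.1% and 32.7%. Within each library, the ratio of Prdx5 to Prdx2 was 0.901 and 1.70, a log2 change of 0.92 (0.77 to 1.07). The ratio of Prdx3 to Prdx2 was 0.339 and 0.611 (0.85, interval 0.69 to 1.01), and that of Prdx4 to Prdx2 was 0.0323 and 0.0179 (-0.85, interval -1.45 to -0.25). Of the 50-base stretches of Prdx5, 29.7% also occur in transcripts of Trmt112, and 23.8% of those of Prdx2 occur in other genes.

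Sulfiredoxin (Srxn1, chr2:152105516-152111376) rescues peroxiredoxins that hydrogen peroxide has overoxidized. Its level was low, at 0.768 RPKM (22 reads) and 1.79 RPKM (151 reads). The RPKM was 2.33 times as high in 4T1-GMP, and the log2 interval of 0.57 to 1.94 was wide because of the few reads. Thioredoxin itself (Txn1) was abundant, at 125 RPKM (1334 reads) and 186 RPKM (5878 reads), with a log2 ratio of 0.58 (0.49 to 0.67), whereas the mitochondrial Txn2 was at 51.1 and 55.8 RPKM, with a log2 ratio of 0.13 that turned to -0.04 without Rn45s. The reductases that recharge them showed the same split by compartment, but it did not hold across the whole set. Mitochondrial Prdx3 and Glrx5 were also higher in 4T1-GMP, and cytosolic Prdx2 and Sod1 were not. Cytosolic Txnrd1 was at 30.9 and 37.6 RPKM (log2 ratio 0.28, interval 0.19 to 0.38), and mitochondrial Txnrd2 at 8.15 and 7.24 RPKM (-0.17, interval -0.44 to 0.10), or -0.33 (-0.60 to -0.06) without Rn45s. The ratio of Txn1 to Txn2 was 2.44 and 3.34, a log2 change of 0.45 (0.30 to 0.60). That of Txnrd1 to Txnrd2 was 3.79 and 5.20, a log2 change of 0.45 (0.18 to 0.73). Of the 6 mitochondrial genes, 5 were higher in 4T1-GMP, or 3 without Rn45s, beside 54.7% and 39.2% of all genes. Their median log2 ratio was 0.19, or 0.03 without Rn45s, beside 0.05 and -0.11 for all genes.

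Quantile normalization, which treats genes by rank rather than by a common factor, moved the change of 5 of the 14 ratios between paired genes by over 1.5 times and reversed none. These were Prdx4 to Prdx2 (-0.38), Glrx to Glrx2 (0.40), Txnrd1 to Txnrd2 (0.30), Sod2 to Sod1 (0.49) and Gpx1 to Gpx4 (0.17).

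**Figure D3:**
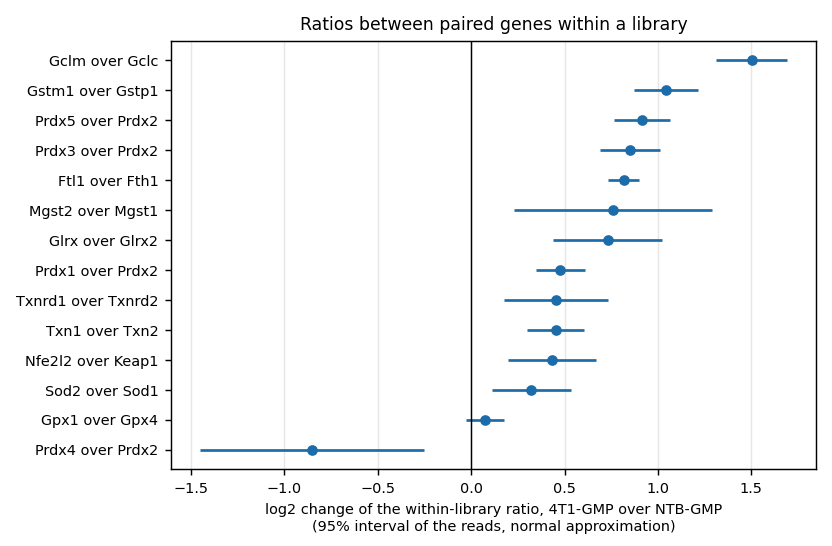
Log2 change, from NTB-GMP to 4T1-GMP, of the ratio between 2 genes of a pair measured in the same library (points), with the 95% interval of the reads by normal approximation (lines). Gclm over Gclc has the largest change at 1.502, Gpx1 over Gpx4 includes 0, and Prdx4 over Prdx2 is the 1 pair below 0. These ratios do not depend on the library sizes, but quantile normalization alters them, to -0.38 for Prdx4 over Prdx2 and 0.40 for Glrx over Glrx2.

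Superoxide dismutases turn superoxide into hydrogen peroxide, and catalase breaks hydrogen peroxide down in peroxisomes. Sod1, the copper-zinc enzyme, was at 180 RPKM (595 reads) and 160 RPKM (1557 reads), a log2 ratio of -0.17 (-0.31 to -0.03). The recovered reads of Sod1 may be too low by a common factor, and its interval then too wide. The length recovered with them was 324 bases, against 641 in the longest annotated transcript. Sod2, the mitochondrial manganese enzyme, was at 20.1 and 22.3 RPKM, with a log2 ratio of 0.15 (-0.01 to 0.32) that turned to -0.01 without Rn45s. Cat was at 35.3 and 34.4 RPKM (-0.04, interval -0.15 to 0.07), and its ratio without Rn45s was -0.20 (-0.31 to -0.09). None of these 3 genes was 1.5-fold different. The ratio of Sod2 to Sod1 was 0.111 in NTB-GMP and 0.139 in 4T1-GMP, a log2 change of 0.32 (0.11 to 0.54). Of the 50-base stretches of Sod1, 23.1% also occur in Gm8566.

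In the control of NRF2, Nfe2l2 was at 31.6 RPKM (265 reads) and 40.4 RPKM (997 reads), a log2 ratio of 0.35 (0.15 to 0.55). On these reads the interval includes 0 when Rn45s is left out. The recovered reads of Nfe2l2 may be too low by a common factor, and its interval then too wide. The length recovered with them was 823 bases, against 2475 in the longest annotated transcript. Keap1, which targets NRF2 for degradation, was at 13.8 and 13.1 RPKM (-0.08, interval -0.22 to 0.05), or -0.24 (-0.38 to -0.11) without Rn45s. Sqstm1, the autophagy receptor p62 that can take KEAP1 away from NRF2, was at 36.8 and 48.9 RPKM (0.41, interval 0.25 to 0.58). The ratio of Nfe2l2 to Keap1 was 2.29 and 3.09, a log2 change of 0.43 (0.20 to 0.67). These are levels of RNA, and NRF2 is regulated largely through the stability of its protein, which was not measured.

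Among the best-known NRF2 target genes, Nqo1 and Hmox1 were low in both libraries. Nqo1, a quinone reductase used widely as a marker of NRF2 activity, was at 0.823 RPKM (13 reads) and 0.451 RPKM (21 reads), and its log2 interval of -1.93 to 0.25 includes 0. Hmox1, the inducible heme oxygenase, was at 1.25 RPKM (10 reads) and 1.65 RPKM (39 reads), with an interval of -0.63 to 1.57. A difference in either gene was not detectable at this depth. Hmox2, the constitutive form, was at 35.2 and 44.8 RPKM, a log2 ratio of 0.35 (0.20 to 0.49), although 47.7% of its 50-base stretches also occur in transcripts of Cdip1.

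Over the whole set, 16 genes were listed as known NRF2 targets and 14 of them could be compared. Of these 14, 12 were higher in 4T1-GMP (11 without Rn45s), 4 were at least 1.5-fold higher (Gclm, Gstm1, Srxn1 and Ftl1) and 0 were 1.5-fold lower. Their median log2 ratio was 0.38 (0.22 without Rn45s). Of the 23 other genes, 16 were higher (14 without Rn45s), 4 were at least 1.5-fold higher and 1 was at least 1.5-fold lower. The median of these 23 was 0.33 (0.16 without Rn45s). Beside these counts, 54.7% of all genes were higher (39.2% without Rn45s), 9.8% at least 1.5-fold higher and 11.6% at least 1.5-fold lower. The median of all genes was 0.05 (-0.11 without Rn45s). The medians of the targets and of the other genes of the set thus lay close together.

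Ferritin is built from a heavy chain (Fth1, chr19:9980598-9985098), which oxidizes iron, and a light chain (Ftl1, chr7:45457944-45459884), which helps to store it. Ftl1 was at 477 RPKM (4707 reads) and 782 RPKM (22761 reads), a log2 ratio of 0.71 (0.67 to 0.76) and 0.55 without Rn45s. Fth1 was at 146 RPKM (2241 reads) and 136 RPKM (6149 reads), a log2 ratio of -0.10 (-0.17 to -0.03). The ratio of light to heavy chain RNA was 3.27 in NTB-GMP and 5.77 in 4T1-GMP, a log2 change of 0.82 (0.73 to 0.90). The level of Ftl1 is uncertain, because 90.6% of the 50-base stretches of its transcript occur in 17 other genes, led by Ftl1-ps1, beside 4.01% for Fth1.

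**Figure D4:**
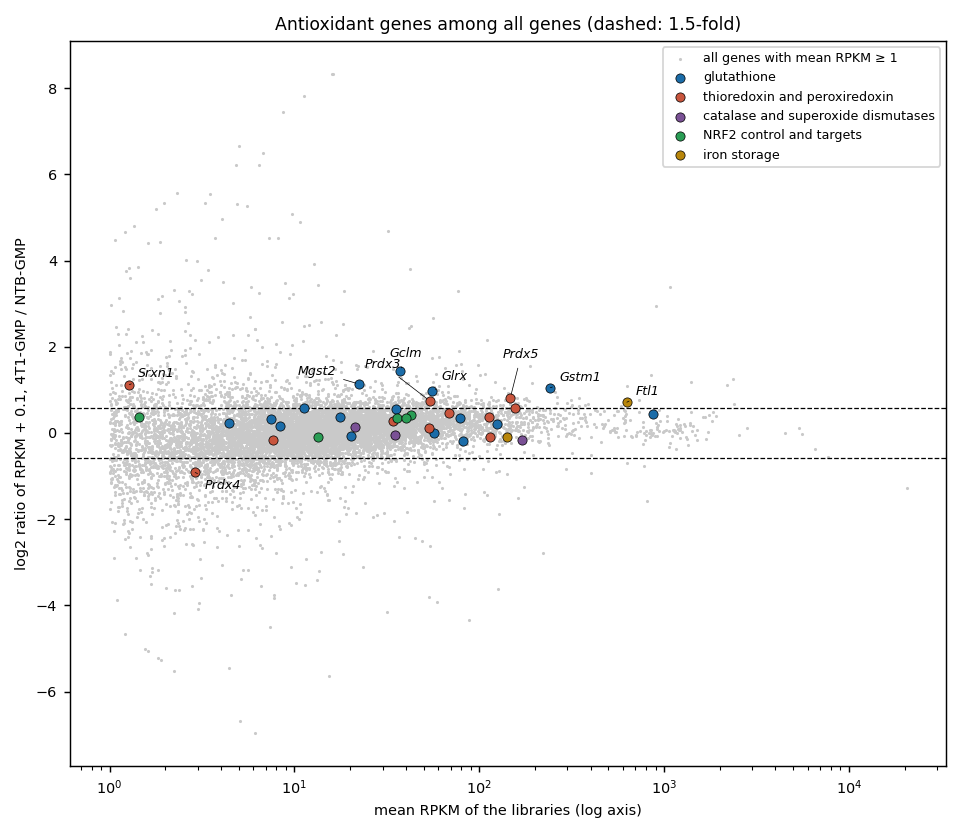
Log2 ratio of 4T1-GMP over NTB-GMP against mean RPKM (log axis) for the 10378 genes compared (gray) and the 37 antioxidant genes among them (colored by system). Dashed lines mark 1.5-fold. The named genes, 8 above the upper line and Prdx4 below the lower stand out from the other colored points, and gray points lie beyond them on both sides. Without Rn45s the colored points lie about 0.16 lower, and Ftl1 falls inside the upper line.

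The counts by system stand beside 54.7% of all genes higher in 4T1-GMP (39.2% without Rn45s), 9.8% at least 1.5-fold higher and 11.6% at least 1.5-fold lower. Of the genes compared, 14 of 16 glutathione genes were higher (13 without Rn45s), 4 of them at least 1.5-fold, with a median log2 ratio of 0.37 (0.20 without Rn45s). In the thioredoxin and peroxiredoxin system 8 of 11 were higher (7 without Rn45s), 3 of them at least 1.5-fold, with 1 lower by that much and a median of 0.38 (0.22 without Rn45s). Srxn1, among these 3, passed the minimum mean level only because of 4T1-GMP. Of the 3 genes for catalase and superoxide dismutases, 1 was higher (0 without Rn45s) and the median was -0.04. Of the 5 genes grouped under NRF2 control and targets (Nfe2l2, Keap1, Sqstm1, Hmox1 and Hmox2), 4 were higher and 0 passed 1.5-fold, with a median of 0.35. Most known NRF2 targets, including Gclm, Gstm1, Srxn1 and Ftl1, which passed 1.5-fold, were grouped under other systems. The summed RPKM of the glutathione system was 1397 and 1968, mostly Gpx1, and that of the thioredoxin and peroxiredoxin system 641 and 864.

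Other genes of the same pathways were then taken from lists written by function, 140 genes in all, of which 139 were in the files and 98 could be compared. Of these 98 genes, 66 were higher in 4T1-GMP (52 without Rn45s), 14 were at least 1.5-fold higher and 7 at least 1.5-fold lower, with a median log2 ratio of 0.21 (0.05 without Rn45s). Of all genes, 54.7% were higher (39.2% without Rn45s), 9.8% were at least 1.5-fold higher and 11.6% at least 1.5-fold lower, and their median was 0.05. The genes named here are those with the largest differences beyond 1.5-fold in each list, up to 3 in each direction.

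Of 12 other glutathione peroxidases and transferases compared, 9 were higher (7 without Rn45s), 2 by at least 1.5-fold. Gstt2, a theta class transferase, was at 7.46 and 13.03 RPKM (log2 ratio 0.80), and Gpx3, the secreted plasma peroxidase, at 3.43 and 5.36 RPKM (0.63). Gstm7, a relative of Gstm1, was lower at 1.81 RPKM (24 reads) and 0.945 RPKM (37 reads), a log2 ratio of -0.87 (-1.72 to -0.13). Gstm7 passed the minimum mean level only because of NTB-GMP. In glutathione turnover and cysteine supply, 10 of 11 genes were higher (6 without Rn45s), but 1 passed 1.5-fold, Chac2, which breaks glutathione down, at 1.403 and 2.18 RPKM (0.60) with an interval of -0.09 to 1.43 that includes 0.

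Of 26 genes compared that have a thioredoxin fold, reduce methionine sulfoxide or control thioredoxin, 19 were higher (16 without Rn45s). The selenoprotein Msrb1, a methionine sulfoxide reductase, was at 75.2 and 128 RPKM (log2 ratio 0.77), the thioredoxin-related membrane protein Tmx4 at 70.6 and 122 RPKM (0.79), and Sesn2, a sestrin induced by stress, at 0.888 and 1.82 RPKM (0.96), which like Srxn1 passed the minimum mean level only because of 4T1-GMP. The other direction was taken by Sesn3, at 3.78 and 1.79 RPKM (-1.04), and Txndc16, at 4.22 and 2.13 RPKM (-0.95). Of the 8 genes of selenoprotein synthesis, on which GPX1, GPX4 and the thioredoxin reductases depend, 5 were higher (4 without Rn45s) and 0 passed 1.5-fold in either direction.

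Of 12 partners and regulators of NRF2, 4 were higher (2 without Rn45s), with a median log2 ratio of -0.07. Trim21, a ubiquitin ligase, was at 6.48 and 3.89 RPKM (-0.72). Of 11 further NRF2 targets compared, 8 were higher (7 without Rn45s). The NADPH-producing enzymes of the pentose phosphate pathway were among them, with Pgd at 102 and 174 RPKM (log2 ratio 0.77, interval 0.71 to 0.84) and G6pdx at 37.2 and 59.9 RPKM (0.69, interval 0.59 to 0.79). Biliverdin reductase B (Blvrb), which also reduces flavins, was lower at 6.10 and 3.04 RPKM (-0.98), as was the aldo-keto reductase Akr1c13 at 10.4 and 5.68 RPKM (-0.87).

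Iron handling held the widest spread, with 11 of 18 genes higher (10 without Rn45s), 6 of them at least 1.5-fold, and 1 lower by that much. One of the 6, Steap4, passed the minimum mean level only because of 4T1-GMP. The metalloreductase Steap4 was at 0.0313 RPKM from a single read and 9.66 RPKM from 910 reads, and the log2 interval of that ratio ran from 5.79 to 13.6. Slc40a1, ferroportin, the exporter of iron, was at 11.5 and 32.1 RPKM (log2 ratio 1.48). Hfe, which takes part in iron sensing, was at 4.22 and 10.8 RPKM (1.34). The iron chaperone Pcbp2 was lower at 104 and 68.1 RPKM (-0.61).

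**Figure D5:**
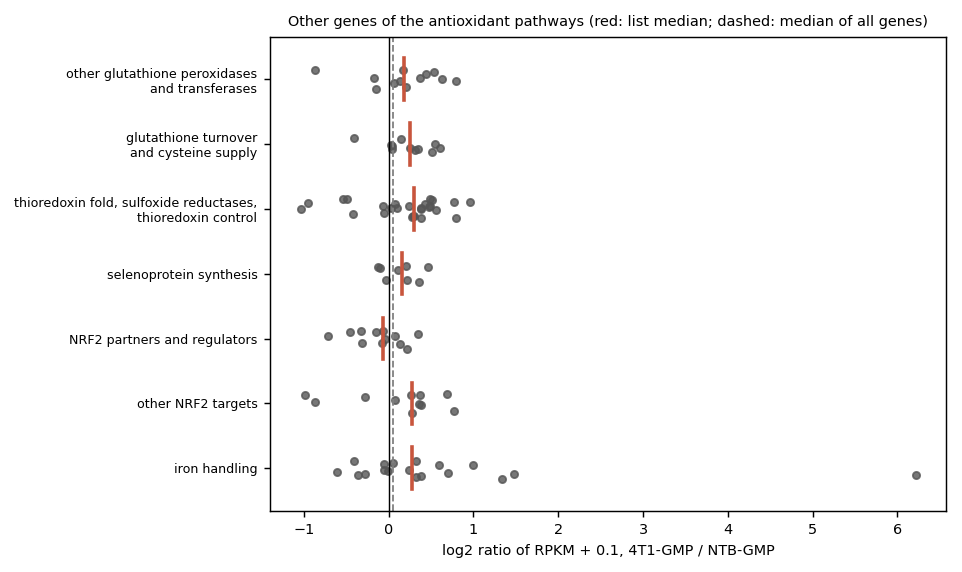
Log2 ratio of 4T1-GMP over NTB-GMP for the 98 other pathway genes compared (points, spread vertically for legibility), by list, with the list's median in red and the median of all genes dashed. The list medians run from -0.07 for NRF2 partners and regulators to 0.29 for the thioredoxin fold list, and without Rn45s from -0.23 to 0.13. Steap4 is the point at 6.22, from a single read in NTB-GMP.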

How the data were processed

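RNA of 2 libraries of sorted mouse GMPs, 1 per group, was compared. The authors deposited RPKM per gene symbol. The submitters' processing notes list CASAVA 1.8.2, cutadapt 1.2.1, TopHat2 2.0.13, Picard 1.97, HTSeq 0.6.1, edgeR 3.12.1 and the build mm10. The role of each tool, the strand setting and the gene lengths are not given in the sources used here. RPKM depend on which reads enter the library size, and on how reads shared with near copies were counted.

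Whole reads were recovered as the smallest whole numbers giving the ratios of the RPKM, at a relative tolerance of 1e-12, for 14833 genes above 0. They came to 9486697 and 26353075 reads, and for some genes are too low by a common factor, so intervals are at least as wide as needed. The recovery was tested on simulated data. Ratios were taken as log2(RPKM + 0.1), which understates differences of low genes, for genes whose mean reached 1 RPKM. Intervals are 95% Clopper-Pearson, scaled by library size, and refer to the RPKM without the 0.1. Those of ratios between 2 genes use a normal approximation, and those pairs were chosen after their values were seen. With 1 library per group no p-value was computed. The reads carry no molecular identifiers, so intervals miss PCR error.

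The genes, lists and alternatives were chosen with earlier results of these data known. All 39 genes are named, plus up to 3 of the largest differences beyond 1.5-fold in each direction per pathway list. Alternatives were pseudocounts of 1 and 0.01, a minimum mean of 5 RPKM, all genes above 0, Rn45s left out of library sizes, quantile normalization and the median of all genes set to 0. Positions and 50-base stretches shared between genes came from GENCODE M21, and promoters from RefSeq on GRCm38.p6. The windows of Gclc, Gsr, Prdx6 and Hmox1 are not analysed here. Computations used Python 3.11.15, numpy 2.4.6, pandas 2.3.3, scipy 1.17.1 and matplotlib 3.10.9.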

Additional observations from a re-analysis of the deposited data

How the results depend on the processing

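No paired analysis was possible because there was a single library of each kind, which also means that none could be left out. Of the 37 log2 ratios, 12 stayed inside the interval of the deposited ratio with Rn45s left out, 16 under quantile normalization, 34 with the median of all genes at 0 and 37 under each other pseudocount. Ratios of genes with few reads stay inside more easily, because their intervals are wide. The sign changed for Gstp1 (-0.16 with Rn45s left out, -0.20 under quantile normalization and -0.042 with the median of all genes at 0), Txn2 (-0.036 with Rn45s left out and -0.078 under quantile normalization), Sod2 (-0.013 with Rn45s left out) and Gsr (-0.024 under quantile normalization). The median of the 37 genes was 0.35 as deposited, 0.19 with Rn45s left out and 0.21 under quantile normalization.

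The number at least 1.5-fold higher lay between 6 and 9 in every alternative, beside 5.73% to 11.9% of all genes. The number at least 1.5-fold lower was 0 at a minimum mean of 5 RPKM, beside 6.97% of all genes. It was 2 when all genes above 0 were used, where Nqo1 joined Prdx4, beside 17.0%. With Rn45s left out, 1 gene (Gclm) was at least 2-fold higher, beside 2.51% of all genes, and 1 (Prdx4) at least 2-fold lower, beside 6.75%. In the pathway lists, the number at least 1.5-fold higher was 9 with Rn45s left out and 9 under quantile normalization, against 14 as deposited. The shares of all genes were 5.73%, 9.48% and 9.8% in that order. The number at least 1.5-fold lower was 3 at a minimum mean of 5 RPKM and 16 with all genes above 0, against 7, since those settings test fewer or more low genes. The shares of all genes moved too, to 6.97% and 17.0%, against 11.6%. The cause of the Rn45s difference between the libraries was not tested. With 43 or fewer NTB-GMP reads recovered for Mgst2, Prdx4, Srxn1, Nqo1, Hmox1 and Slc7a11, their ratios are, on these reads, the least certain of the set. The recovered reads of Mgst2 and Hmox1 may be too low by a common factor. The lengths recovered with them were 301 and 788 bases, against 603 and 1569 in the longest annotated transcripts.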

Other observations

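Some genes of the pathway lists fell outside the rule for named genes but lay near it, and they were chosen after their values were seen. The transferrin receptor Tfrc, which brings iron into cells, was at 36.6 and 73.0 RPKM (NTB-GMP first), a log2 ratio of 0.99, and the heme transporter Slc48a1 was at 37.6 and 60.9 RPKM (0.70). Together with Slc40a1, Hfe, Steap4 and the cysteine desulfurase Nfs1 (17.7 and 26.6 RPKM, 0.59), these were the 6 iron handling genes at least 1.5-fold higher. The thioredoxin inhibitor Txnip was at 40.6 and 28.8 RPKM (-0.49), opposite in direction to Txn1. Of the pathway genes with a mean under 1 RPKM, the interval of the reads lay above 0 for 4 (Ggt1, Chac1, Osgin1 and Slc11a1) and below 0 for 3 (Anpep, Ephx1 and Abcc2). Osgin1, an NRF2 target, was at 0.200 and 1.19 RPKM (4 and 70 reads), and Anpep, a membrane peptidase, at 0.689 and 0.0779 RPKM (24 and 8 reads). The catalytic enzymes of transsulfuration, Cbs and Cth, which make cysteine from methionine, were at or below 0.20 RPKM in both libraries. No ratio of these genes has a replicate check.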
